A study of Mus musculus with 2 samples.

Results

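The thrombospondins, tenascins and other matricellular genes were chosen by symbol, as 10 genes of the 32287 features counted in single cells of the mouse thoracic aorta. They are the thrombospondin family (*Thbs1*, *Thbs2*, *Thbs3*, *Thbs4* and *Comp*), 2 tenascins (*Tnc* and *Tnxb*), periostin (*Postn*), SPARC (*Sparc*) and osteopontin (*Spp1*). All 10 were present in the feature list, and all 10 had at least 151 unique molecular identifiers (UMIs, each of which stands for 1 captured RNA molecule) in the cells analysed. The 2 libraries were each made from the aorta of 1 mouse, and both belonged to 1 group labelled WT (n = 2). These GFPiSMC mice were C57BL/6J animals with the tamoxifen-inducible Cre *Myh11*-CreERT2 and the mT/mG reporter, in which recombined smooth muscle cells (SMCs) carry membrane eGFP and all other cells tdTomato. Both mice received tamoxifen at 1 mg per day for 5 days from the age of 3 weeks, and their aortas were taken at 12 weeks. Per the methods the mice were male, since the Y chromosome carries the Cre transgene, and the values hold for male animals. Digestion was done with cold enzymes, and live singlets were sorted regardless of GFP. There was no second genotype or treatment, so every comparison is between cell types of the same 2 aortas.

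Matricellular proteins are secreted into the extracellular matrix, where they act on cells, growth factors and other matrix proteins more than as building material. Thrombospondins bind calcium and cell-surface receptors such as CD36, CD47 and integrins, and thrombospondin-1 can release latent TGF-β from its complex. Tenascin-C modulates adhesion of cells to fibronectin and is known for its rise in injured and developing tissue, whereas tenascin-X is a constitutive companion of collagen fibrils. Periostin supports collagen cross-linking, SPARC is a collagen chaperone and counter-adhesive protein, and osteopontin is a phosphoprotein made by macrophages and bone cells. In the arterial wall, SMCs of the media and fibroblasts of the adventitia make most of the matrix, and the endothelium lines the lumen.

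After filters on UMIs, genes, mitochondrial share and doublets, 6539 cells with 41129166 UMIs remained in aorta 1 and 4614 cells with 27637874 UMIs in aorta 2. The median was 5671 and 5397 UMIs per cell. Cells were clustered without the 10 genes, their relatives and their receptors, and clusters were named by marker genes, so that SMC, fibroblast and the other names mean SMC-like, fibroblast-like and so on. The 4216 SMCs carried the SMC markers at 39756 and 38509 UMIs per 1000000 (CPM), against 930 and 636 CPM in the 2397 fibroblasts. The fibroblast markers summed to 24410 and 24916 CPM in fibroblasts, against 1550 and 968 CPM in SMCs. The other types were 1514 endothelial cells, 1400 myeloid cells, 985 lymphocytes, 432 mesothelial cells and 36 erythroid cells. A further 173 cells were left unnamed and entered no comparison. They include 13 cells of aorta 1 led by *Xist*, *Sall1* and *P2ry12*, a gene of female cells and 2 genes of microglia, although the mice were given as male. Of the SMCs, 3853 had more than 1 eGFP UMI. The barcode sets of the 2 libraries shared 18 barcodes. Levels are given as CPM of the summed UMIs of a type in 1 aorta. They are not compared between genes, because the capture of each transcript can differ.

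**Figure D1:**
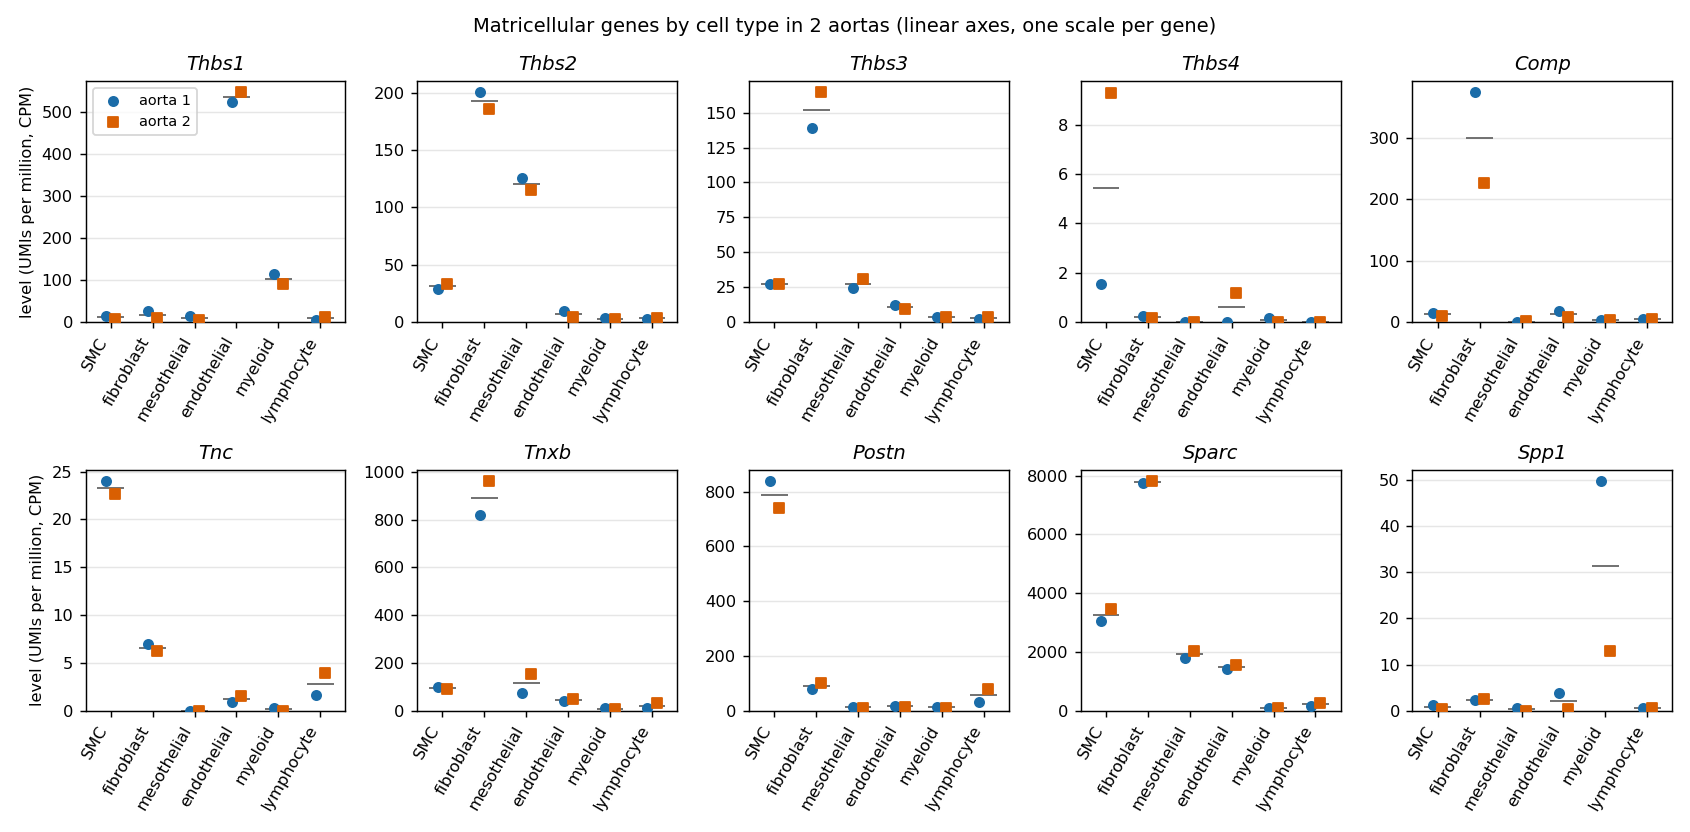
Level of each gene in 6 cell types (CPM, linear axis from 0, one scale per gene), with a circle for aorta 1, a square for aorta 2 and a grey line for the mean (n = 2). *Thbs1* stood at 525 and 548 CPM in endothelial cells, *Postn* at 839 and 739 CPM in SMCs, and *Comp* at 374 and 226 CPM in fibroblasts.

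The genes divided the cell types of the wall. Fibroblasts had the highest level of *Thbs2*, *Thbs3*, *Comp*, *Tnxb* and *Sparc*, SMCs of *Tnc* and *Postn*, endothelial cells of *Thbs1*, and myeloid cells of *Spp1*. *Thbs4* had most of its UMIs in 1 cell and is given no place in this order. Of the 10 genes, 9 passed the filter on low counts and could be tested, whereas *Thbs4* did not. For 8 of these 9, the type with the highest level was called above the next type in the order, against 28.1% of all genes tested. The exception was *Thbs2*, for which fibroblasts and mesothelial cells were separated by less than the fold limit. Because the types were picked by their order, these contrasts describe which neighbours are separated. Differences were tested with edgeR's quasi-likelihood test on the summed UMIs of 7 types in 2 aortas, with Benjamini-Hochberg adjustment over all 13960 genes tested, and a difference was called at an adjusted p under 0.05 with a log2 fold change over 1 in either direction. The p-values rest on a spread between 2 animals that was estimated over all 7 types together. For each gene it was also drawn towards the spread of the other genes (13.2 prior degrees of freedom). It is thus not the spread of the 2 compared types alone, and the cell types share an animal and a library.

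The first question was how the media and the adventitia divide these genes between them, as SMCs against fibroblasts. Of the 9 genes tested, 2 were higher in SMCs (*Postn* and *Tnc*) and 5 were higher in fibroblasts (*Comp*, *Tnxb*, *Thbs2*, *Thbs3* and *Sparc*). Over all genes tested, 10.5% were called higher in SMCs and 15.7% higher in fibroblasts. The median log2 fold change was −1.49 over the 9 genes and −0.09 over all genes. *Thbs1* and *Spp1* were not called.

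**Figure D2:**
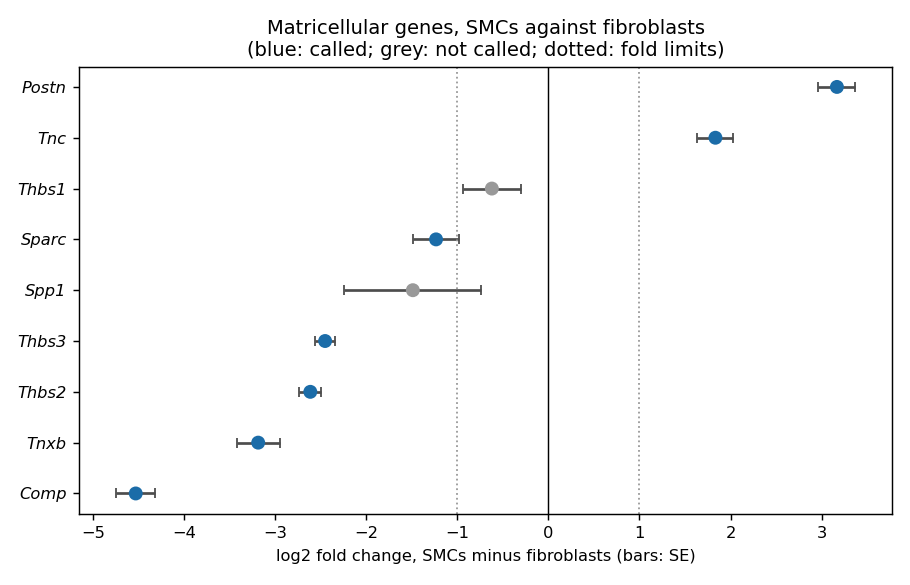
Log2 fold change of the 9 tested genes, SMCs minus fibroblasts, with bars for the SE, blue for called genes and grey for genes not called; dotted lines mark the fold limit. *Postn* (3.17) and *Tnc* (1.83) lie to the right and *Comp* (−4.53) lies farthest to the left.

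To show the control regions of genes with opposite patterns, the 120 bases before the RefSeq start are given for *Postn* and *Tnc*, the genes higher in SMCs, and for *Tnxb* and *Thbs2*, 2 of the genes higher in fibroblasts (build GRCm38.p6, printed on the strand of the gene, 5′ to 3′). They lie at chr3:54360987-54361106 (plus strand), chr4:64047016-64047135 (minus strand), chr17:34670415-34670534 (plus strand) and chr17:14694263-14694382 (minus strand). Capitals mark the motifs TATAAA and TGANTCA where they occurred.
Postn: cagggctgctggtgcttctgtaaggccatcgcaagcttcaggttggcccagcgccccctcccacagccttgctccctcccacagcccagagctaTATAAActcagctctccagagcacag
Tnc: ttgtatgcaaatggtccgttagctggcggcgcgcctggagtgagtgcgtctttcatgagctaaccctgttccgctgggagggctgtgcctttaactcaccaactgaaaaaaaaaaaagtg
Tnxb: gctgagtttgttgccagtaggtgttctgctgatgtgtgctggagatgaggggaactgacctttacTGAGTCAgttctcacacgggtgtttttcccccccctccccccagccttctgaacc
Thbs2: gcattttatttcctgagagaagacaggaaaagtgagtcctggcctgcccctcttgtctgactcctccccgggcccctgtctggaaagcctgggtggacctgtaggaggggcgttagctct
The *Postn* stretch held TATAAA, beginning 26 bases before the start. Over the full windows of 300 bases, TATAAA also occurred in *Tnc*, *Thbs2* and *Spp1*, in each case farther upstream, between 126 and 211 bases before the start, and it occurred on either strand in 13.6% of 32851 windows of RefSeq genes of the same length. The AP-1 motif TGANTCA occurred in *Tnxb*, 55 bases before the start, and in 7.81% of all windows. The CArG box, searched by name, was in none of the 8 windows matched and in 1.63% of all windows. Windows were matched by symbol for 8 of the 10 genes, and the set of windows used held none under *Thbs1* or *Comp*. Of 3 further motifs, GGGCGG was in 3, CCAAT in 3 and CAGAC in 6 of the 8 windows, against 35.7%, 37.4% and 49.6% of all windows. These are matches of letters, and binding was not measured.

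*Postn* (ENSMUSG00000027750, chr3:54361109-54391037, plus strand) encodes periostin, a fasciclin-domain protein of collagen-rich tissue. In SMCs its level was 839 CPM in aorta 1 and 739 CPM in aorta 2, against 77.9 and 102 CPM in fibroblasts. Both SMC values lay above every other type, and the groups did not overlap. The log2 fold change against fibroblasts was 3.17 ± 0.20 (SE; edgeR, adjusted p = 2.00e-11). Of all *Postn* UMIs, 92.8% ± 1.7 (SD, n = 2) came from SMCs. Fibroblasts were next in the order, followed by lymphocytes at 32.5 and 80.1 CPM, a difference of 0.72 on the log2 scale that was under the fold limit (adjusted p = 0.0132, edgeR). After each cell was thinned to 1000 UMIs, 40.5% and 39.0% of SMCs had a *Postn* UMI (exact 95% binomial intervals 38.5 to 42.4 and 36.7 to 41.3, counting error only), against 64.9% and 64.9% without thinning. Lymphocytes, which are not known to make periostin, had 1.93% and 2.48% after thinning, at a median depth of 4092 and 3895 UMIs against 7471 and 7407 in SMCs.

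*Tnc* (ENSMUSG00000028364, chr4:63959785-64047015, minus strand) encodes tenascin-C. Its level was 24.0 and 22.6 CPM in SMCs and 6.96 and 6.24 CPM in fibroblasts, so the 2 aortas lay close together and the types did not overlap. The log2 fold change was 1.83 ± 0.20 (SE; edgeR, adjusted p = 1.14e-07). SMCs held 85.5% ± 0.41 (SD, n = 2) of its UMIs. No *Tnc* UMI was found in mesothelial cells of either aorta, which allows up to 1.66 and 2.97 CPM (a floor of 3 counts per library). Against 3 counts over both aortas, the level of fibroblasts was at least 6.26-fold higher and that of SMCs at least 22.01-fold higher than in mesothelial cells. With doublets kept, the value for SMCs over fibroblasts was 1.19.

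*Comp* (ENSMUSG00000031849, chr8:70373558-70382066, plus strand) encodes cartilage oligomeric matrix protein, the fifth thrombospondin. It stood at 374 and 226 CPM in fibroblasts and at 14.98 and 10.02 CPM in SMCs. The log2 fold change of SMCs against fibroblasts was −4.53 ± 0.21 (SE; edgeR, adjusted p = 1.05e-13), the largest difference of the 9 genes in this comparison. Over all alternatives this *Comp* value ran from −5.18 to −4.36. Fibroblasts held 89.5% ± 0.64 (SD, n = 2) of the *Comp* UMIs. Endothelial cells (17.2 and 7.93 CPM) and SMCs were next in the order and were not separated from each other (adjusted p = 0.750, edgeR). Of the 75 endothelial *Comp* UMIs, 60 were in the 123 cells of 1 cluster, led by *Ccl21a* and *Mmrn1*, so the place of endothelial cells in the order rests on it. Mesothelial cells had 1 *Comp* UMI in each aorta, which made fibroblasts 441-fold higher (exact 95% interval 122 to 3641, counting error only); with doublets kept, the fitted log2 fold change went from −8.89 to −5.78, and without aorta 1 or aorta 2 it was −8.05 or −9.61.

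*Tnxb* (ENSMUSG00000033327, chr17:34670535-34719815, plus strand) encodes tenascin-X. Its level in fibroblasts was 820 and 961 CPM. Mesothelial cells followed at 74.1 and 156 CPM and SMCs at 99.0 and 92.7 CPM, and these 2 types were not separated (adjusted p = 0.861, edgeR). Fibroblasts were above SMCs in both aortas, with a log2 fold change of SMCs against fibroblasts of −3.19 ± 0.24 (SE; edgeR, adjusted p = 2.11e-10). In the thinned cells, 47.3% and 52.9% of fibroblasts had a *Tnxb* UMI (exact 95% intervals 44.7 to 49.97 and 49.8 to 56.0), against 0.322% and 1.65% of lymphocytes. Without thinning, 83.6% and 82.9% of fibroblasts had one.

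*Thbs2* (ENSMUSG00000023885, chr17:14665500-14694235, minus strand) and *Thbs3* (ENSMUSG00000028047, chr3:89215180-89226837, plus strand) encode the thrombospondins that were highest in fibroblasts beside *Comp*. *Thbs2* stood at 200 and 186 CPM in fibroblasts, 126 and 115 CPM in mesothelial cells, and 28.7 and 33.6 CPM in SMCs. Fibroblasts exceeded SMCs (log2 fold change of SMCs against fibroblasts −2.61 ± 0.12 SE; edgeR, adjusted p = 2.22e-13), and mesothelial cells also exceeded SMCs (−1.72 ± 0.15 for SMCs against mesothelial cells; adjusted p = 4.00e-09). *Thbs3* stood at 139 and 164 CPM in fibroblasts, against 27.3 and 26.9 CPM in SMCs and 24.3 and 30.7 CPM in mesothelial cells. Its log2 fold change of SMCs against fibroblasts was −2.45 ± 0.11 (SE; edgeR, adjusted p = 6.36e-14), and SMCs and mesothelial cells were not separated (adjusted p = 0.264). The 2 genes thus differed in the mesothelium, where *Thbs2* was 0.90 below fibroblasts on the log2 scale and *Thbs3* 2.72 below; whether the 2 genes differ in this was not tested. *Thbs3* overlaps *Mtx1* on the other strand, and because the strand setting of the counting was not stated in the sources used here, their reads cannot be told apart with certainty. The same holds for *Thbs1* with *Gm29233* and for *Tnc* with *8030451A03Rik*.

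*Sparc* (ENSMUSG00000018593, chr11:55394500-55423183, minus strand) was found in every type. Its level was 7738 and 7816 CPM in fibroblasts, 3048 and 3457 CPM in SMCs, 1787 and 2050 CPM in mesothelial cells, and 1435 and 1541 CPM in endothelial cells. The difference between SMCs and fibroblasts was the smallest of the called ones, at −1.23 ± 0.25 (SE; edgeR, adjusted p = 2.49e-04), and SMCs were in turn above mesothelial cells by 1.01 (adjusted p = 0.00211), close to the fold limit. Mesothelial and endothelial cells were not separated (adjusted p = 0.384). Fibroblasts held 50.1% ± 1.9 and SMCs 43.0% ± 1.7 (SD, n = 2) of all *Sparc* UMIs. After thinning, 96.0% and 96.3% of fibroblasts had a *Sparc* UMI, against 7.09% and 7.22% of myeloid cells and 6.27% and 7.71% of lymphocytes. The unthinned shares were 99.8% and 99.9%, 26.4% and 22.4%, and 21.2% and 17.4%, in the same order.

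The second question was what the endothelium contributes. Of the 9 genes tested, 6 were higher in SMCs than in endothelial cells and 1 was lower, against 14.1% and 15.4% of all genes. Between fibroblasts and endothelial cells, 7 were higher in fibroblasts and 1 was lower, against 14.4% and 11.8% of all genes. The gene higher in endothelial cells was *Thbs1* in both comparisons, and *Postn*, *Tnc*, *Tnxb*, *Thbs2*, *Thbs3* and *Sparc* were lower in endothelial cells than in either SMCs or fibroblasts. *Tnxb* and *Sparc* were the smallest of these differences from SMCs, at 1.25 ± 0.27 and 1.31 ± 0.25 on the log2 scale (adjusted p = 5.92e-04 and 1.52e-04, edgeR), and neither was called by DESeq2 (adjusted p = 0.190 and 0.132). Of the 260 endothelial *Tnxb* UMIs, 180 were in the 123 cells of the cluster led by *Ccl21a* and *Mmrn1*. The *Tnxb* difference was not tested without that cluster. The *Thbs2* difference was 2.22 ± 0.22 from SMCs and 4.84 ± 0.19 from fibroblasts, and without aorta 1 it was 3.12 and 5.55. In cells of 5000 to 25000 UMIs, the difference of SMCs from endothelial cells fell from 5.80 to 2.94 for *Postn* and from 4.398 to 2.88 for *Tnc*, and 2 differences between fibroblasts and endothelial cells were no longer called. That of *Postn* went from 2.63 to −0.42 (adjusted p = 0.216) and that of *Tnc* from 2.56 to 0.91 (adjusted p = 0.0886).

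*Thbs1* (ENSMUSG00000040152, chr2:118111876-118127133, plus strand) encodes thrombospondin-1, which platelets store and which binds CD36 and CD47. In endothelial cells its level was 525 and 548 CPM. Myeloid cells followed at 114 and 91.1 CPM, fibroblasts at 25.3 and 8.71 CPM and SMCs at 14.5 and 7.70 CPM. Endothelial cells were higher than each other type in both aortas. Against SMCs, their log2 difference was recorded as −5.36 ± 0.28 (SMCs minus endothelial cells; SE; edgeR, adjusted p = 5.18e-13), and against fibroblasts as −4.74 ± 0.28 (adjusted p = 6.39e-12). Endothelial cells were also above myeloid cells by 2.08 ± 0.24 (adjusted p = 1.81e-07), in a comparison in which 18.8% of all genes were called higher in endothelial cells. SMCs and fibroblasts were not separated (−0.62 ± 0.32; adjusted p = 0.109), but with doublets kept the difference was −1.26 and was called (adjusted p = 6.04e-04). Without aorta 1, the differences of SMCs and of fibroblasts from endothelial cells were −5.97 and −5.82. Over all alternatives they ran from −5.97 to −4.92 for SMCs and from −5.82 to −4.12 for fibroblasts. Endothelial cells held 65.3% ± 10 (SD, n = 2) of the *Thbs1* UMIs although they held 7.76% and 9.12% of all UMIs. After thinning, 22.4% and 20.6% of endothelial cells had a *Thbs1* UMI (exact 95% intervals 19.5 to 25.5 and 17.7 to 23.7), against 36.2% and 36.4% without thinning; in lymphocytes the thinned share was 0.804% and 0.275%.

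*Thbs1* was not even over the endothelium. A cluster of 555 cells led by *Emcn*, *Bmp6* and *Edn1* had 1092 and 1074 CPM, whereas a cluster of 594 cells led by *Klk10*, *Isl1* and *Gja5* had 180 and 214 CPM. In aorta 1 the endothelial markers summed to 8989 and 10363 CPM in these clusters, and their median depth was 4072 and 3219 UMIs per cell. The cluster led by *Ccl21a*, *Mmrn1* and *Prox1*, genes of lymphatic endothelium, had 120 and 114 CPM. In the same lymphatic-gene cluster of 123 cells, *Comp* reached 258 and 67.0 CPM and *Tnxb* 498 and 382 CPM, far above the endothelial mean of 12.6 and 46.0 CPM. These are descriptions of clusters, with no test.

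**Figure D3:**
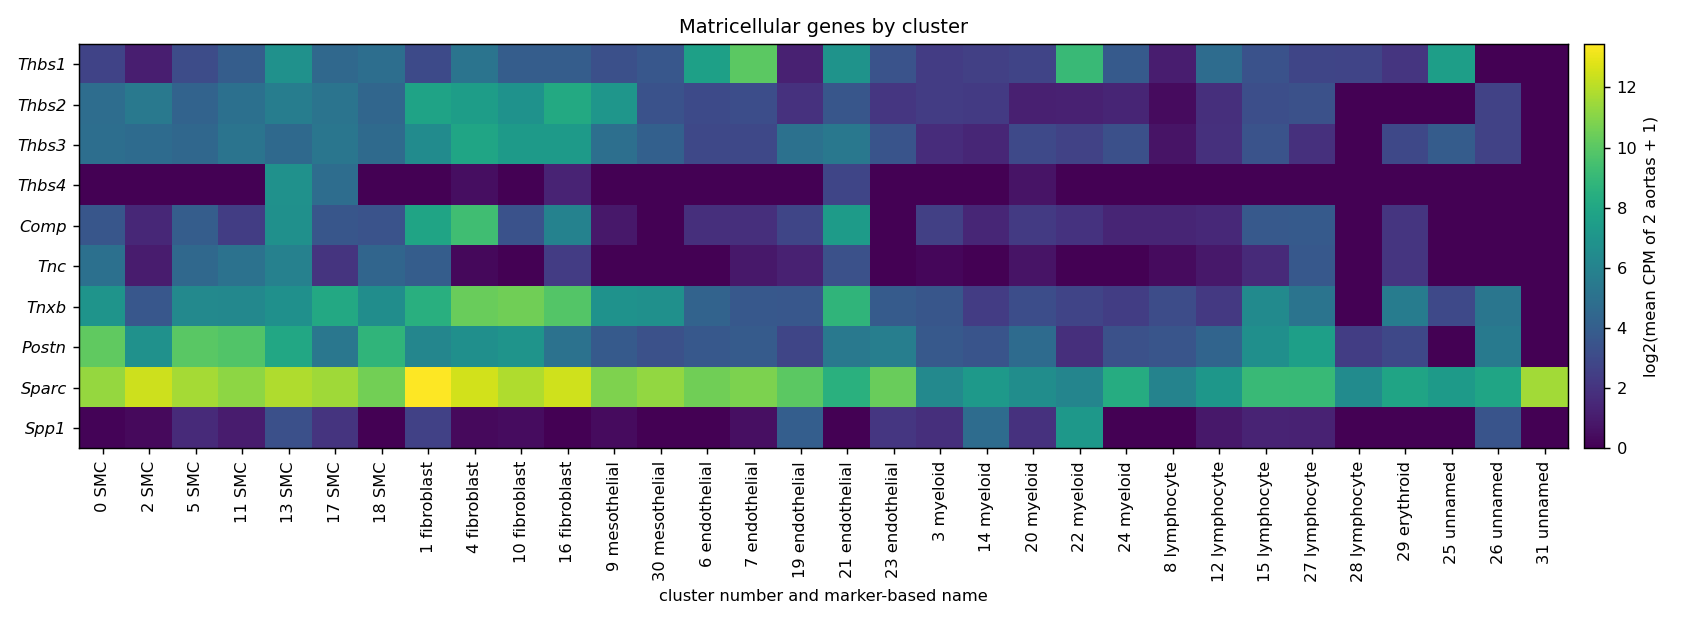
Level of the 10 genes in the 32 clusters, as log2 of the mean CPM of both aortas plus 1, with clusters grouped by their marker-based names. *Thbs1* was highest in endothelial cluster 7 and myeloid cluster 22, and cluster 31 had cells in aorta 1 alone; *Sparc* was found in every cluster of SMCs, fibroblasts, mesothelial and endothelial cells.

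The third question was how the mesothelium, the outer lining, compares with fibroblasts. None of the 9 genes was called higher in mesothelial cells and 6 were higher in fibroblasts (*Comp*, *Tnc*, *Tnxb*, *Postn*, *Thbs3* and *Sparc*), against 10.8% and 13.7% of all genes. *Sparc* was lower in mesothelial cells by a log2 fold change of −2.24 ± 0.26 (SE; edgeR, adjusted p = 3.60e-07) and *Tnxb* by −3.26 ± 0.27 (adjusted p = 2.24e-09). *Postn* stood at 14.9 and 10.9 CPM in mesothelial cells, a log2 fold change of −2.95 ± 0.36 (adjusted p = 7.30e-07), which was −1.41 with doublets kept. Of the 38 *Postn* UMIs of mesothelial cells, 47.4% were in 1 cell. *Thbs2* was lower by −0.90 ± 0.13, under the fold limit (adjusted p = 1.60e-05). *Thbs1* (13.8 and 3.96 CPM) and *Spp1* (1 UMI and none) were not called, but *Spp1* was called with the aorta as a block (−2.98; adjusted p = 0.0461, edgeR). Fibroblast markers were present in mesothelial cells at 5349 and 6254 CPM, and the part of shared or free RNA in these levels was not tested.

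The fourth question was which immune cells carry the genes. Between myeloid cells and lymphocytes, 2 genes were higher in myeloid cells (*Thbs1* and *Spp1*) and 3 in lymphocytes (*Postn*, *Sparc* and *Tnc*), against 18.0% and 13.6% of all genes. *Spp1* (ENSMUSG00000029304, chr5:104435118-104441050, plus strand) stood at 49.8 and 12.9 CPM in myeloid cells, so the 2 aortas differed widely. In fibroblasts its level was 2.28 and 2.46 CPM, in endothelial cells 3.76 and 0.397 CPM and in SMCs 1.16 and 0.321 CPM. Myeloid cells were above fibroblasts by 3.93 ± 0.50 on the log2 scale (adjusted p = 7.10e-07, edgeR), in a comparison in which 18.5% of all genes were called higher in myeloid cells. Against lymphocytes, with 3 *Spp1* UMIs in all, the ratio was 57.3 (exact 95% interval 19.4 to 279, counting error only), and the fitted log2 difference of 5.75 was 4.60 without aorta 1. Over all alternatives that difference ran from 4.60 to 10.34. In aorta 1, 1 cell held 105 of the 420 *Spp1* UMIs. Between SMCs and fibroblasts, *Spp1* was not called (−1.49 ± 0.75; adjusted p = 0.103), and it was called with the aorta as a block (−1.54; adjusted p = 0.00710).

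A single myeloid cluster held most of both genes. It had 118 cells, a median of 15229 UMIs, and was led by *Alox15*, *Cd5l*, *Marco* and *Prg4*. *Thbs1* reached 553 and 567 CPM there, with 960 of the 1001 myeloid *Thbs1* UMIs. *Spp1* reached 207 and 78.7 CPM, with 286 of the 341 myeloid *Spp1* UMIs, in 28 cells, and 105 of these 286 were in the 1 cell of aorta 1 given above. The largest myeloid cluster, of 873 cells led by *Cd209f*, *Folr2* and *Cd163*, had 4.11 and 4.32 CPM of *Thbs1* and 4.45 and 0.541 CPM of *Spp1*. *Thbs1* was higher in myeloid cells than in lymphocytes by 3.70 ± 0.42 on the log2 scale (adjusted p = 1.85e-07, edgeR), a value that was 2.97 without aorta 1 and 4.43 without aorta 2.

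Of the genes higher in lymphocytes, *Tnc* had a UMI in 8, *Postn* in 60 and *Sparc* in 195 of the 985 lymphocytes. The 70 cells of 1 cluster, led by *Top2a* and *Mki67*, genes of dividing cells, held 9 of the 12 *Tnc*, 139 of the 241 *Postn* and 388 of the 1015 *Sparc* UMIs of lymphocytes, and the calls were not tested without it. *Postn* stood at 15.2 and 8.99 CPM in myeloid cells and at 32.5 and 80.1 CPM in lymphocytes, a log2 fold change of −1.96 ± 0.32 for myeloid cells against lymphocytes (adjusted p = 2.11e-05, edgeR), which was −3.01 without aorta 1 and −0.99 without aorta 2. In the cluster of dividing cells *Postn* was at 109 and 269 CPM, from 10 cells with a UMI. SMC markers summed to 1077 and 1469 CPM in lymphocytes and to 806 and 581 CPM in myeloid cells; their part in the difference was not tested. *Sparc* stood at 91.4 and 110 CPM in myeloid cells and at 178 and 270 CPM in lymphocytes (−1.05 ± 0.27; adjusted p = 0.00257), and DESeq2 did not call it (adjusted p = 0.0993). *Tnc* had 12 UMIs in lymphocytes and 2 in myeloid cells, a ratio of 11.9 (exact 95% interval 2.65 to 110), and the fitted log2 fold change of −3.36 was −6.92 without aorta 1 and −2.14 without aorta 2; aorta 2 had no *Tnc* UMI in myeloid cells. *Tnxb* stood at 9.78 and 7.31 CPM in myeloid cells and at 9.72 and 33.9 CPM in lymphocytes, so the types differed in aorta 2 and lay close together in aorta 1. It was not called (−1.05 ± 0.47; adjusted p = 0.0698, edgeR) but was with the aorta as a block (−1.02; adjusted p = 0.0381), and the value was −2.07 without aorta 1 and turned to 0.12 without aorta 2. With no limits on UMIs or mitochondrial share, *Postn*, *Tnc* and *Sparc* were no longer called.

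*Thbs4* (ENSMUSG00000021702, chr13:92751590-92794818, minus strand) encodes a thrombospondin of muscle, tendon and vessel walls. It had 151 UMIs in 35 cells, and its level in SMCs was 1.55 CPM in aorta 1 and 9.30 CPM in aorta 2. In aorta 2, 1 SMC held 107 of the 116 SMC UMIs of that aorta. Fibroblasts had 3 *Thbs4* UMIs in all, endothelial cells 3, myeloid cells 1 and mesothelial cells and lymphocytes none. Of the other *Thbs4* UMIs of cells named SMC, 26 and 8 were in a subset led by *C7* and *Angptl1*, at 47.8 and 39.3 CPM. In that subset the fibroblast markers, at 37749 and 37058 CPM, exceeded the SMC markers, at 3328 and 2108 CPM. No test was made.

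The other genes of these families and their receptors were taken as 2 lists. Of 14 relatives, 8 could be tested between SMCs and fibroblasts, and 2 were higher in SMCs, 4 were higher in fibroblasts and 2 were not called. Of 18 receptors, all could be tested, and 8 were higher in SMCs, 4 were higher in fibroblasts and 6 were not called. The shares called over all genes were 10.5% higher in SMCs and 15.7% higher in fibroblasts. Their median log2 fold changes were −0.12 and 0.61, against −0.09 over all genes. *Ptprz1*, a receptor phosphatase that binds tenascins, stood at 246 and 217 CPM in SMCs and at 4.22 and 4.11 CPM in fibroblasts (log2 fold change 5.81 ± 0.17 SE; edgeR, adjusted p = 9.80e-17). *Itga8*, the α8 integrin chain, which pairs with β1 and binds tenascin-C and osteopontin, stood at 1494 and 1543 CPM in SMCs against 81.5 and 75.1 CPM in fibroblasts (4.30 ± 0.18; adjusted p = 1.13e-14). *Ibsp*, bone sialoprotein, had 179 UMIs in SMCs and 2 in fibroblasts, a ratio of 43.5 (exact 95% interval 11.9 to 362, counting error only). In the other direction, *Tgfbi*, the fasciclin-domain relative of periostin, stood at 15.2 and 10.5 CPM in SMCs against 1218 and 1105 CPM in fibroblasts (−6.45 ± 0.23; adjusted p = 1.32e-15), so that the 2 fasciclin genes lay on opposite sides of this comparison. *Smoc2*, a SPARC relative, stood at 22.8 and 15.8 CPM against 1089 and 1018 CPM (−5.72 ± 0.17; adjusted p = 1.15e-16). *Lrp1*, an endocytic receptor that takes up thrombospondins, stood at 282 and 282 CPM against 1420 and 1367 CPM (−2.28 ± 0.17; adjusted p = 1.59e-10).

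The cluster of 187 cells led by *Mab21l2*, *Chrm2* and *Nrn1* was named SMC, with fibroblast markers at 26790 and 21211 CPM, SMC markers at 7766 and 11642 CPM and eGFP at 3310.4 and 4309 CPM, below the 6436 and 6068 CPM of all SMCs. SMCs were then divided into 10 subsets, again without the 10 genes, and the levels in them are given as a description. Subset 0, led by *Hand2* and *Tnnt2*, held 995 cells, subset 1, led by *Hoxa7* and *Tafa1*, 878 cells, and subset 2, led by *Dlx6*, *Msx2* and *Adamtsl1*, 778 cells. These 3 subsets had median depths of 9462, 10112 and 7679 UMIs, and their SMC marker sums in aorta 1 were 48063, 45157 and 24031 CPM. Subsets 3 and 6 were of low depth, with medians of 1788 and 1858 UMIs. Subsets 7 and 9 had genes of other types among their leading genes (*Dcn* and *Dpt*, and *C1qa* and *Csf1r*), and subsets 4 and 5 each had 1 fibroblast marker there, *Serpinf1* and *Lum*. The fibroblast markers summed to 4269 and 4840.0 CPM in subset 4 and 2837 and 2308 CPM in subset 5, and subset 7 had fibroblast markers at 37749 CPM against 3328 CPM of SMC markers in aorta 1. Leaving out the 130 cells of subsets 7 and 9 changed no call among the genes between SMCs and fibroblasts.

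Of these 3 subsets, subset 2 was lowest in both aortas in *Postn*, *Tnc*, *Tnxb*, *Comp* and *Thbs1* and highest in *Sparc* and *Thbs2*. The share of all genes that set subset 2 apart in this way was not counted, so no weight is put on the number of these genes. *Postn* stood at 1001 and 936 CPM in subset 0 and 1394 and 1148 CPM in subset 1, but at 93.6 and 80.9 CPM in subset 2. Subset 1 was thus 14.9-fold and 14.2-fold above subset 2 in the 2 aortas. *Postn* was lower still in the mixed subset 7, at 68.1 and 24.6 CPM. *Tnc* stood at 9.70 and 13.6 CPM in subset 0, 58.2 and 41.2 CPM in subset 1, and 1.26 and 1.03 CPM in subset 2, the last from 7 UMIs in all, which made subset 1 43.6-fold higher (exact 95% interval 21.0 to 109, counting error only). *Tnxb* stood at 119 and 103 CPM in subset 0 and 115 and 120 CPM in subset 1, against 10.1 and 10.6 CPM in subset 2. *Sparc* ran the other way, with 5342 and 5809 CPM in subset 2 against 2132 and 2556 CPM in subset 0 and 2889 and 2808 CPM in subset 1. *Tnc* was also low in subset 5, at 4.61 and 2.24 CPM, and in subset 7, at 3.68 CPM in aorta 1 and with no UMI in aorta 2. *Thbs2* stood at 38.1 and 49.7 CPM in subset 2 against 27.7 and 28.9 CPM in subset 0 and 25.6 and 26.3 CPM in subset 1. *Comp* (1.58 and 2.06 CPM, from 5 and 6 UMIs) and *Thbs1* (1.26 and 0.343 CPM, from 4 and 1 UMIs) rested on few counts in subset 2. Between subsets 0 and 1, *Tnc* was 6.00-fold and 3.03-fold higher in subset 1, whereas *Tnxb* overlapped.

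**Figure D4:**
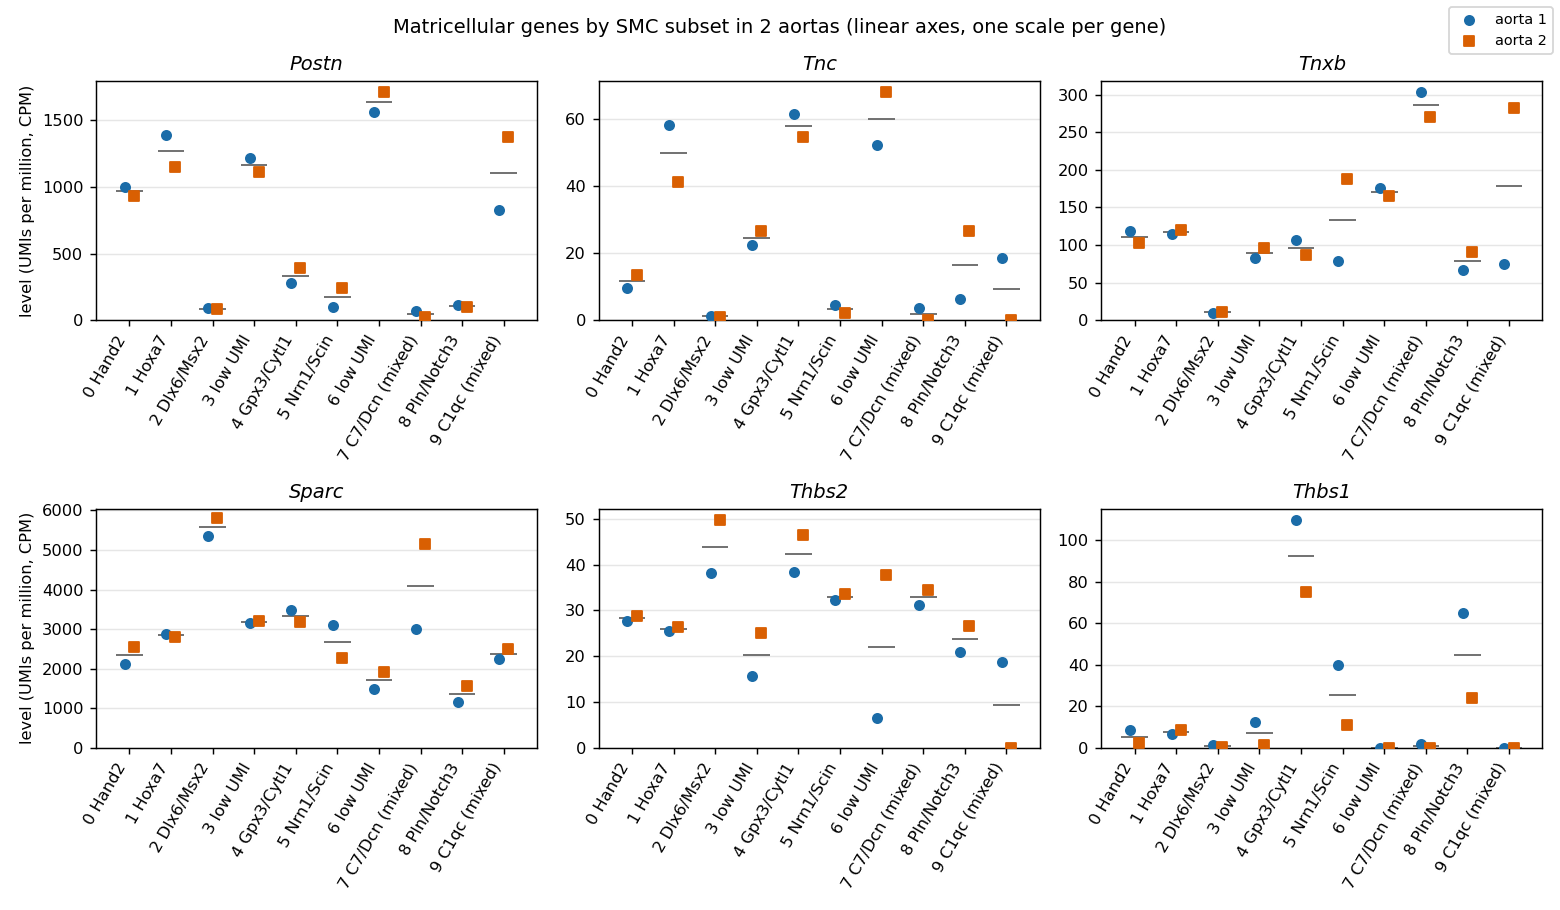
Level of 6 genes in the 10 SMC subsets (CPM, linear axis from 0, one scale per gene), with a circle for aorta 1, a square for aorta 2 and a grey line for the mean. *Postn* stood at 93.6 and 80.9 CPM in subset 2 against 1394 and 1148 CPM in subset 1, and *Sparc* at 5342 and 5809 CPM in subset 2.

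Other SMC subsets differed in *Thbs1*, *Postn* and *Tnc*. *Tnc* stood at 61.3 and 54.5 CPM in subset 4, above its level in subset 1 in both aortas. In subset 6, which was of low depth, *Tnc* was at 52.1 and 67.9 CPM, from 8 and 9 UMIs. *Thbs1* was at 110 and 74.7 CPM in subset 4, led by *Gpx3* and *Cytl1*, and at 65.0 and 23.9 CPM in subset 8, led by *Kcna5*, *Pln* and *Notch3*, against 8.61 and 2.32 CPM in subset 0. The summed level of 9 genes of the response to digestion was 842, 3088 and 2637 CPM in these 3 subsets in aorta 1. In aorta 2 it was 370, 516 and 1763.5 CPM, in the same order of subsets. Its part in the levels was not tested. *Postn* was at 117 and 101 CPM in subset 8 and 103 and 239 CPM in subset 5, led by *Nrn1* and *Scin*. In subsets 0, 1, 2, 4, 5 and 8 of either aorta, *Thbs2* stood between 20.97 and 49.7 CPM. *Thbs3* stood between 16.8 and 31.9 CPM in subsets 0, 1, 2, 4, 5 and 8 of either aorta.

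Fibroblasts were divided into 7 subsets, and by the mean of both aortas *Comp* was highest in subset 0, *Thbs2* and *Sparc* in subset 1, and *Thbs3* and *Tnxb* in subset 5. Subset 6, with *Cd52* and *C1qa* among its leading genes, had 28 and 18 cells. It carried SMC markers at 9352 and 6852 CPM and myeloid markers at 1265 and 1583 CPM. The alternative without mixed subsets did not leave it out. *Comp* was at 1054 and 512 CPM in subset 0 (681 cells, led by *Kitl*, *Hmcn2* and *Meox2*), 215 and 172 CPM in subset 1 (677 cells, led by *Fmod* and *Pax1*) and 28.6 and 13.4 CPM in subset 2 (379 cells, led by *Dact2* and *Pla1a*). Subset 0 was 36.8-fold and 38.2-fold above subset 2 in the 2 aortas. *Tnxb* was at 2752 and 3173 CPM in the 61 cells of subset 5, led by *Sema3e* and *Fn1*, at 1480 and 1359 CPM in subset 2 and at 454 and 445 CPM in subset 1. Between subsets 1 and 2 *Sparc* had the reverse order, with 12995 and 12528 CPM in subset 1 and 3515 and 3918 CPM in subset 2. *Sparc* was thus 3.70-fold and 3.20-fold higher in subset 1 and *Tnxb* 3.26-fold and 3.05-fold higher in subset 2, in aortas 1 and 2.

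*Thbs2* and *Thbs3* were both lowest in subset 3 and differed in subset 1. *Thbs2* stood at 336 and 319 CPM in subset 1 and 367 and 248 CPM in subset 4 (led by *Lepr*, *Epyc* and *Tcf21*), but at 39.9 and 50.6 CPM in subset 3 (led by *Lamc3* and *Cytl1*), where *Thbs3* was at 46.5 and 59.1 CPM. *Thbs3* was at 148 and 180.3 CPM in subset 4 and at 232 and 240 CPM in subset 0 and 101 and 98.9 CPM in subset 1, where *Thbs2* was among its highest. Subset 5 had the highest *Thbs3* (259 and 416 CPM) from 59 and 61 UMIs. *Postn* in fibroblasts ran from 33.8 and 23.4 CPM in subset 1 to 289 and 737 CPM in subset 5, from 66 and 108 UMIs, and the 2 aortas differed there. *Tnc* was at 17.3 and 20.0 CPM in subset 1, with 71 of the 99 fibroblast UMIs. *Spp1* was at 10.7 and 13.5 CPM in subset 3, with 26 of the 35 fibroblast UMIs.

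**Figure D5:**
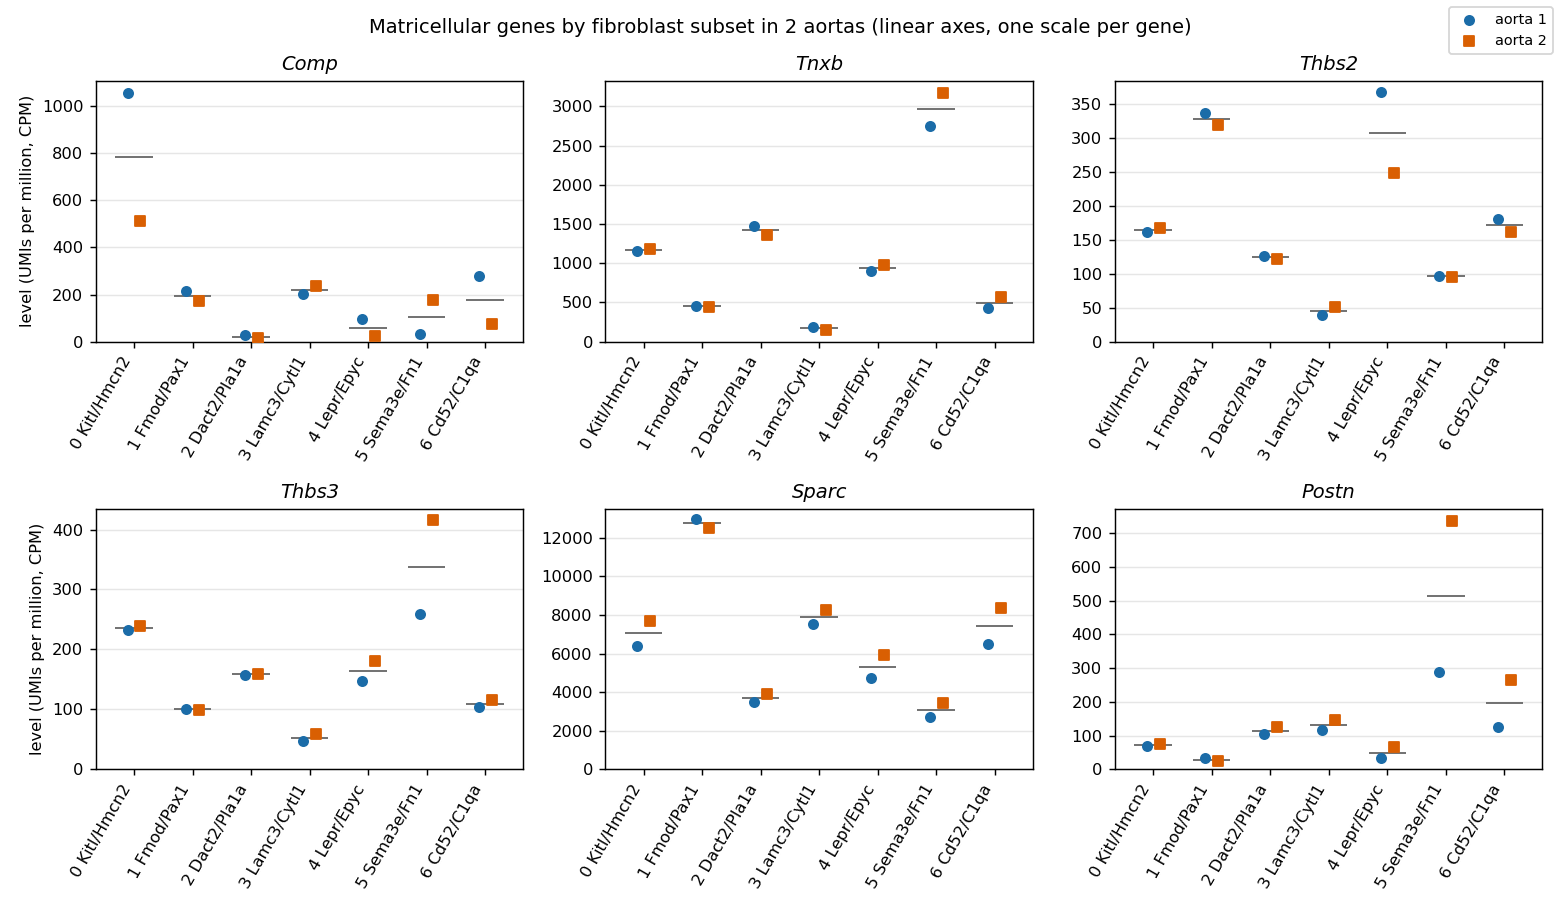
Level of 6 genes in the 7 fibroblast subsets (CPM, linear axis from 0, one scale per gene), with a circle for aorta 1, a square for aorta 2 and a grey line for the mean. *Comp* stood at 1054 and 512 CPM in subset 0, *Sparc* at 12995 and 12528 CPM in subset 1 and *Tnxb* at 2752 and 3173 CPM in subset 5.

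The genes whose pattern was most like each gene were found across the 30 clusters with at least 10 cells in each aorta, by Pearson's r of log2(mean CPM + 1). Clusters share libraries and broad types, so r is a description. For *Postn* these were *Hspb7* (0.87), *Hacd1* (0.85) and *Csrp2* (0.85), and for *Tnc* *Ankrd1* (0.87), *Ccdc42* (0.84) and *Gm13889* (0.81). For *Thbs2* they were *Mrc2* (0.96), *Col3a1* (0.95) and *Adamts2* (0.94), and for *Thbs3* *Numbl* (0.91), *Serping1* (0.88) and *Slit3* (0.88). *Tnxb* went with *Serping1* (0.91), *Bmp1* (0.89) and *Aspn* (0.88), *Comp* with *Clec11a* (0.84), *Ntrk2* (0.83) and *Cpxm2* (0.83), and *Sparc* with *Ccdc80* (0.95), *Gstt1* (0.95) and *Bgn* (0.94). *Thbs1* had no close companion, with *Cgnl1* first at 0.66. Among the genes themselves, *Thbs2* and *Sparc* had r = 0.87, *Thbs3* and *Tnxb* 0.86 and *Postn* and *Tnc* 0.75, whereas *Thbs1* had r = 0.03 with *Thbs2*. *Thbs4* and *Spp1* had fewer than 500 UMIs and were not compared in this way.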

How the data were processed

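The deposited values are raw UMI counts per gene and cell of 2 droplet libraries of the 3′ kit, 1 per aorta, with the features and barcodes beside them. Per the file header the authors made these counts with Cell Ranger 4.0.0, and the submitters' processing notes name mm10 and Seurat 4.0. Strand use in the counting and the aligner settings were not given in the sources used here. The labels give 8947 and 6263 cells before filtering, equal to the deposited cells, and 6278 and 4300 after it.

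Cells with over 200 genes, a total of 1000 to 25000 UMIs and under 10% mitochondrial UMIs were kept, Scrublet doublets were removed (205 and 84 cells), and Leiden clustering (resolution 1; scanpy 1.11.5) ran on 2000 variable genes without the 10 genes, 14 relatives and 18 receptors. Clusters were named from marker lists for 12 classes, requiring 3 markers in 25% of cells. After the cluster tables were seen, the naming rule was changed so that a class with no marker among the leading genes and fewer detected markers than another class is passed over, which moved 1 cluster of 187 cells, in which fibroblast markers exceed SMC markers, from pericyte to SMC. UMIs were summed per aorta and type and tested with edgeR 4.0.16 (quasi-likelihood, TMM, filterByExpr, genome-wide Benjamini-Hochberg adjustment; R 4.3.3), checked on simulated counts. Subsets came from a further clustering at resolution 0.5 and were not tested. The cells of a number share an animal, so aortas pair the samples; deviations of SMCs and fibroblasts of 1 aorta correlated with r = 0.10 over genes. Named genes are the 10 members, the 3 relatives or receptors with the largest called fold in each direction, and the 3 genes most alike in pattern. Members and lists were chosen with earlier results of these data known. Promoter windows and coordinates are from RefSeq (GRCm38.p6) and GENCODE M21; of several RefSeq starts, the one nearest the GENCODE gene start was used. Exact binomial intervals (95%) and floors of 3 counts cover counting error only. Alternatives were DESeq2 1.42.0, total-UMI scaling, no gene filter, the aorta as a block, other cell filters, doublets kept, resolution 2, eGFP-positive SMCs, no mixed subsets, each aorta left out and, added after seeing the data, removal of the top cell of each gene.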

Additional observations from a re-analysis of the deposited data

How the results depend on the processing

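With 2 animals, the p-values cover little biological spread, and the cell types of an animal share its library. Between SMCs and fibroblasts, the 2 and 5 called members were 2 to 3 and 5 to 7 over the alternatives that gave a test, and the calls of Postn, Tnc, Comp, Tnxb, Thbs2, Thbs3 and Sparc held in each of these. Spp1, not called there, was called in 6 of the 12 alternatives (−1.44 to −2.71), and Thbs1 in 2, −1.37 without UMI or mitochondrial limits and −1.26 with doublets kept. With aorta as the replicate block, 3 of 45 fold changes changed their call: Spp1 between SMCs and fibroblasts (−1.54) and between mesothelial cells and fibroblasts (−2.98), and Tnxb between myeloid cells and lymphocytes (−1.02), each then called; the block changed no other call and moved no count by over 1.5 times. Leaving out an aorta gave values with no test, since 1 sample per type has no residual spread, so the counts have no value there.

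The count of members higher in lymphocytes than in myeloid cells, 3, was 5 with 5000 to 25000 UMIs and 0 with no UMI or mitochondrial limits. With 5000 to 25000 UMIs, Postn between fibroblasts and endothelial cells reversed to −0.42, Spp1 between SMCs and endothelial cells to 1.57, and Thbs2 and Thbs3 between myeloid cells and lymphocytes to −1.13 and −0.46. Comp between SMCs and endothelial cells, not called at 0.15, was −0.014 with DESeq2, −0.034 with total UMIs, −0.61 without limits, −0.49 with doublets kept and −0.44 in SMCs with more than 1 eGFP UMI, but was called at 1.75 with 5000 to 25000 UMIs. Thbs2 between myeloid cells and lymphocytes, not called at 0.09, was −0.094 with DESeq2 and −0.075 with doublets kept, and Comp there, not called at −0.28, was 0.33 without limits and 0.087 at resolution 2, but was called at −1.58 with 5000 to 25000 UMIs. Tnxb there, at −1.05, was also called with total UMIs (−1.14), no gene filter (−1.02) and 5000 to 25000 UMIs (−1.61), and ran from −2.07 without aorta 1 to 0.12 without aorta 2. Between mesothelial cells and fibroblasts, Thbs1 was called with no gene filter (−1.08) and doublets kept (−1.42), and Spp1 with no gene filter (−2.90). The cause was not tested. Of 594 fold changes recomputed, 13 reversed in an alternative that gave a test. Leaving out an aorta turned the sign of 3 that were not called: Tnxb above, Thbs2 between myeloid cells and lymphocytes (−0.33 without aorta 1) and Spp1 between fibroblasts and endothelial cells (−0.53 without aorta 2). Depth limits Thbs4 (151 UMIs) and Spp1 (420 UMIs).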

Other observations

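In the cells left unnamed, a cluster led by S100a9, S100a8 and Retnlg, genes of neutrophils, had Thbs1 at 73.3 and 290.1 CPM in its 46 and 36 cells, from 7 and 21 UMIs in 1 cell of each aorta. The 13 cells of aorta 1 led by Xist, Sall1 and P2ry12 had Sparc at 3086 CPM, with a UMI in 13 of 13 cells. An endothelial cluster of 153 cells led by Sema3g and Igf2 had 11 Spp1 UMIs, all in aorta 1, of which 90.9% were in 1 cell.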
